A study of Homo sapiens with 9 samples.

Results

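Chromosome 20 is a small, gene-rich chromosome whose long arm carries HNF4A, CEBPB and many genes of cell division, and whose short arm carries FOXA2. Extra copies of it, and of the long arm in particular, are common in carcinomas, and HepG2, a human liver cancer cell line, is known to carry extra copies. In ATAC-seq a transposase cuts open DNA, so a stretch present in more copies yields more reads at open sites and between them, and a peak caller that scores each peak against the reads around it sees a higher background there. INO80 is the ATPase of the chromatin remodeling complex INO80-C, which moves nucleosomes at promoters and distal elements.

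The chromosome 20 regions were all ATAC-seq peaks on that chromosome, merged across 3 lists wherever they touched and divided by arm at 27.5 Mb of GRCh37. There were 3690 such regions among 111239 in all, 2187 on the short arm and 1503 on the long arm. HepG2 cells were transfected with 50 nM of a non-targeting siRNA (NTG) or of an siRNA against INO80, of which there were 2 (siINO80#1; siINO80#2), and harvested 72 h later, so every group was transfected and no untransfected cells entered. Each group had 3 replicates but was represented by 1 peak list, so no value had a spread between replicates, no difference between lists was tested and no p-value is given. On chromosome 20 the NTG list held 2178 peaks of 69730, the siINO80#1 list 2175 of 69333 and the siINO80#2 list 1693 of 53113. With NTG at 1, the number of reads behind the lists, as worked out from the peak values, was 1.43 for siINO80#1 and 1.44 for siINO80#2. Shares carry 95% Wilson intervals, which cover counting error only and treat neighbouring regions as independent. As a check of the cell line, start sites of 8, 7 and 6 of 9 liver marker genes had a peak in NTG, siINO80#1 and siINO80#2. Markers of other cell types gave 1, 1 and 0 of 6, and all protein-coding genes 60.5%, 60.1% and 53.4%. Among the liver genes FGB had a peak in no list, AFP had one in NTG alone, and ALB had none in siINO80#2.

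The sequences below are the 200 bases around the summit of chromosome 20 regions on which the later results turn, read from the plus strand of GRCh37. Capitals mark a letter match to a searched motif, which is a description of the letters and not evidence of a bound factor. The motifs were TGACTCA for AP-1, the FOS and JUN dimer, TGTTTAC for FOXA, TGACGTCA for CRE, the element of CREB and ATF factors, CAAAGTCCA for HNF4A and AGGGGGCG for CTCF. Both strands were read, so AP-1 also appears as its complement. A match to TGACTCA and a match to TGACGTCA cannot share a base. The first regions carry AP-1 letters and either belong to the siINO80 pair, that is to siINO80#1 and siINO80#2 without NTG, or ranked far higher under each INO80 siRNA than under NTG.
Intron of DTD1, siINO80 pair, chr20:18629763-18629941: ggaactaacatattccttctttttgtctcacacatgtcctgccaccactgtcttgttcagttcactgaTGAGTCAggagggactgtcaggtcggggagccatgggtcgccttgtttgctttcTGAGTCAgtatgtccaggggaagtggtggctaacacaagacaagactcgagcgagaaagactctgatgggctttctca
Intron of MACROD2, all 3 lists, chr20:15683627-15684576: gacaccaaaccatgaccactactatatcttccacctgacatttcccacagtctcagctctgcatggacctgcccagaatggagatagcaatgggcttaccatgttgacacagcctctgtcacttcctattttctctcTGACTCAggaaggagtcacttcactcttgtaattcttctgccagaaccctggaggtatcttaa
Intron of MACROD2, all 3 lists, chr20:14959723-14961178: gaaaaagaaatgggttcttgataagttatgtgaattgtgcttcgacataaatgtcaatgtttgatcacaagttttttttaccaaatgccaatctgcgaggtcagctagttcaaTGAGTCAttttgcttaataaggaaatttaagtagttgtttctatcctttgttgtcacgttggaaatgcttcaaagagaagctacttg
The next show liver genes at which the lists differed, and a start site of the long arm, chosen after its values were seen, that was strong in every list. The AURKA window carries CRE letters, the CEBPB window AP-1 letters and the HNF4A window none of the 5 motifs. The CEBPB region has its summit 848 bp upstream of the start site and does not cover it. The start itself lies under a weak siINO80#1 peak.
CEBPB start site, NTG alone, chr20:48806325-48806618: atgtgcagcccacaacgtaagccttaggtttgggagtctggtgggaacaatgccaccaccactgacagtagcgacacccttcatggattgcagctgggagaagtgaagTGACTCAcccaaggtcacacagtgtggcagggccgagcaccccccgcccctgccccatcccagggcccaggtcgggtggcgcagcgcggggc
HNF4A start site, all 3 lists, chr20:42983944-42984984: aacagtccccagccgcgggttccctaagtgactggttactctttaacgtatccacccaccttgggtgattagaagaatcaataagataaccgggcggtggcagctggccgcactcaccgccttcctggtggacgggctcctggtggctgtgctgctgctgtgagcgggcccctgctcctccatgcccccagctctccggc
AURKA and CSTF1 start sites, all 3 lists, chr20:54966750-54968264: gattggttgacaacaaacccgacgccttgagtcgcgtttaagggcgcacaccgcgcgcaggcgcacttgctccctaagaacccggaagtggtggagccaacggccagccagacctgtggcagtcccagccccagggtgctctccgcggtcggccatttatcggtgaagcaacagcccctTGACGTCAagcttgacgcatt
The last are among the strongest regions of the chromosome, a CTCF letter match at the ANKEF1 start site, AP-1 letters at an intergenic site near PFDN4 and FOXA letters in an intron of the long non-coding gene ENSG00000232271.
ANKEF1 start site, all 3 lists, chr20:10015232-10016308: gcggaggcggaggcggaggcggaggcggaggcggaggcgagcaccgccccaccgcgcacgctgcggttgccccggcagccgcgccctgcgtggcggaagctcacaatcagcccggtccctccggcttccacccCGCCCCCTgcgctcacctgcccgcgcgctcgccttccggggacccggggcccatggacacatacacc
Intergenic, nearest to PFDN4, all 3 lists, chr20:52811225-52812715: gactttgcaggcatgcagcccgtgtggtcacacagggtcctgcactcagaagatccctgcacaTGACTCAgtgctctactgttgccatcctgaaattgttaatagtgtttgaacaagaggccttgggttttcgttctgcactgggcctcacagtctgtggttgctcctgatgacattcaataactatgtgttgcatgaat
Intron of ENSG00000232271, all 3 lists, chr20:7094422-7095225: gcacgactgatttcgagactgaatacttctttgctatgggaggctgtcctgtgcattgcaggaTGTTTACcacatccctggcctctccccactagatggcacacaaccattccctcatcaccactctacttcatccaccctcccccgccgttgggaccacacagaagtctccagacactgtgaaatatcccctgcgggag

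Chromosome 20 was among the most densely covered chromosomes. It held 62.0 regions per Mb of known sequence, against 38.4 per Mb over the other chromosomes together, a ratio of 1.61. It ranked 4 of 24, behind chromosome 2 with 90.4 per Mb, chromosome 6 with 74.8 per Mb and chromosome 14 with 68.1 per Mb. Most of the difference lay away from promoters. Regions whose summit was within 1 kb of an annotated transcription start site (TSS-proximal) numbered 10.0 per Mb against 7.47 per Mb elsewhere, a ratio of 1.34, whereas distal regions numbered 52.0 per Mb against 30.9 per Mb, a ratio of 1.68. Chromosome 20 had 85.7 annotated start sites per Mb, against 77.1 per Mb elsewhere, and ranked 10 of 24 by that measure.

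The label of an amplified chromosome was examined through the background that the peak caller had estimated around each peak, given as a multiple of the lowest background of the same list. The median on chromosome 20 was 1.95 in NTG, 1.91 in siINO80#1 and 1.93 in siINO80#2, the highest of 24 chromosomes in each list. Over the other chromosomes together it was 1.21, 1.18 and 1.21. Peaks at the lowest background were rare on chromosome 20, with 1.42% in NTG, 3.08% in siINO80#1 and 1.95% in siINO80#2, against 28.4%, 32.5% and 27.2% elsewhere. When only weak peaks with a −log10 q under 5 were taken, the chromosome 20 medians were 1.66, 1.58 and 1.63, and the chromosome ranked 2 of 24. Background was thus high on chromosome 20 in all 3 lists and differed little between them.

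Background also followed base composition, so it was read within strata of the share of G and C in the 10 kb around the NTG summit, a division chosen after the values were seen. Below 40% G and C, the median of 645 chromosome 20 peaks was 1.38 times the lowest, against 1.00 for 26647 peaks of the other chromosomes. From 40 to 45% the values were 1.85 and 1.22, from 45 to 50% they were 2.61 and 1.54, and from 50% upwards 3.52 and 2.07. Chromosome 20 stood above the other chromosomes together in every stratum of every list. Chromosome 2 lay between them in NTG, at 1.11, 1.51, 2.12 and 3.05 in the same order. Chromosome 14 exceeded chromosome 20 in the lowest stratum, at 1.76, and lay below it in the others, at 1.62, 1.59 and 2.06. The arms were nearly level once composition was held, at 1.38 for the short arm and 1.41 for the long arm in the lowest stratum and 3.68 and 3.43 in the highest. Copy number itself was not measured by these lists, and its part in the background was not tested.

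**Figure D1:**
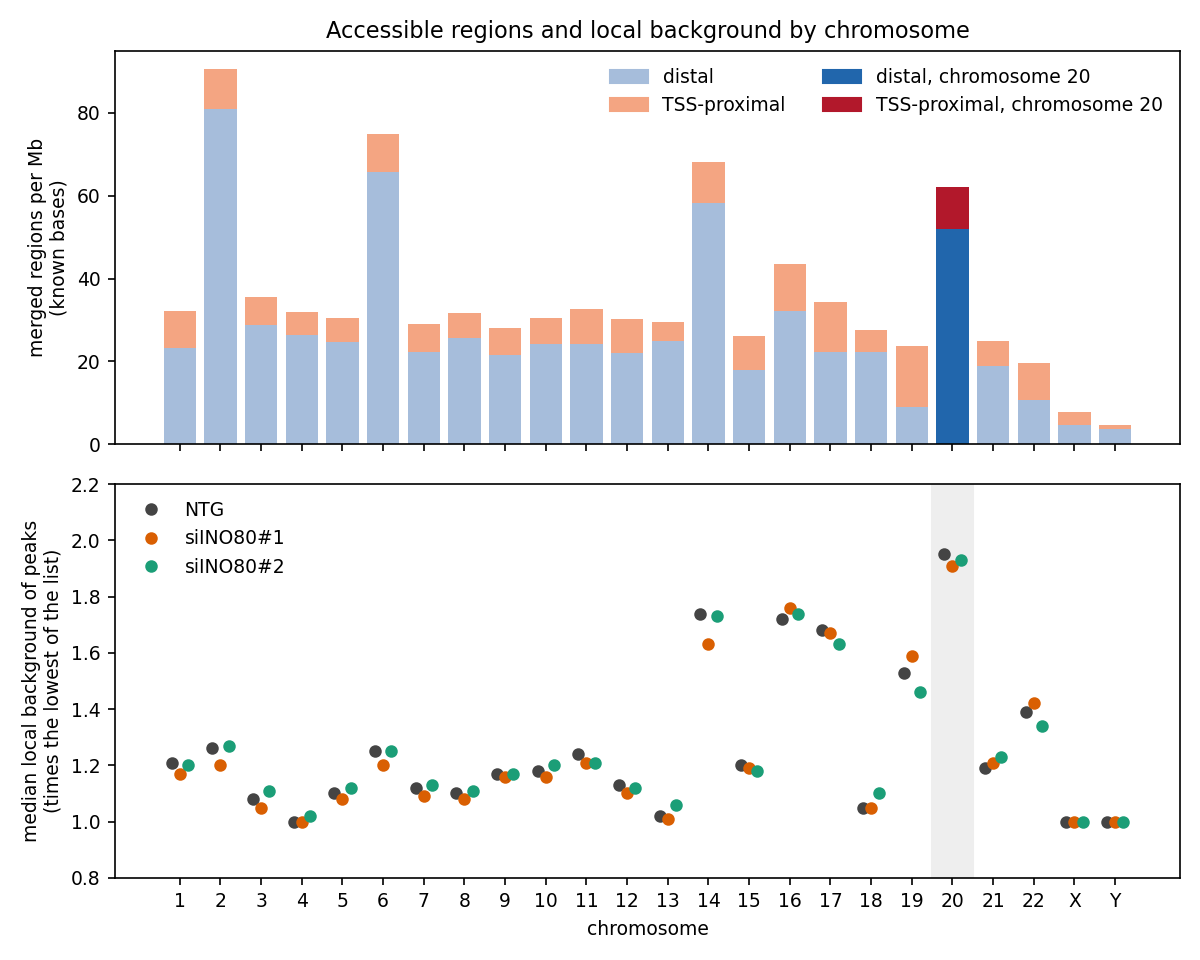
Merged regions per Mb of known sequence for each chromosome, TSS-proximal stacked on distal (top), and the median local background of the peaks of each list as a multiple of the lowest in that list (bottom; points are the 3 lists, chromosome 20 shaded). Chromosome 20 is the fourth highest bar at 62.0 regions per Mb and has the highest background in each list, 1.91 to 1.95.

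Peaks of chromosome 20 held more reads at their summit and yet ranked low by fold enrichment, which divides those reads by the background. The median summit held 25 reads in NTG and 30 in each siINO80 list, against 20, 24 and 25 elsewhere. None of the 24 chromosomes had a higher median in any list, but chromosome 17 equalled it in NTG and chromosome 16 in siINO80#1. Median fold enrichment was 2.96 in NTG, 2.73 in siINO80#1 and 2.68 in siINO80#2, against 3.41, 3.18 and 3.18 elsewhere. The median chromosome 20 peak therefore stood at percentile 33.2, 31.1 and 29.9 of its list by fold enrichment, rank 23 of 24 in each. The long arm, where background was higher, held the weaker peaks by this measure. Its median background was 2.33, 2.40 and 2.32 times the lowest, against 1.74, 1.68 and 1.72 on the short arm. Its median percentile was 27.2 against 34.6 in NTG and 24.7 against 31.1 in siINO80#2. In siINO80#1 the arms were closer, at 29.7 against 31.8.

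The arms differed in where their regions lay. The short arm held 83.3 regions per Mb and the long arm 45.2 per Mb, a ratio of 1.84. TSS-proximal regions were equally dense, at 10.0 per Mb on each arm, so the difference was in distal regions, at 73.3 per Mb against 35.2 per Mb. This was so although the long arm has 99.3 start sites and 10.9 protein-coding genes per Mb, against 68.5 and 7.01 on the short arm. The TSS-proximal share was 12% of short arm regions (10.7 to 13.5) and 22.2% of long arm regions (20.1 to 24.3), around the 19.4% of the other chromosomes. Introns held 48.7% of short arm and 38.0% of long arm regions, and intergenic sequence 36.7% and 37.8%. Start sites of protein-coding genes were compared next, without a test. A peak lay within 1 kb of a start site for 121 of 184 short arm genes in NTG (65.8%, 58.6 to 72.2) and for 201 of 361 long arm genes (55.7%, 50.5 to 60.7), with overlapping intervals, against 60.5% of all 20155 coding genes. In siINO80#2 the shares were 60.9% (53.7 to 67.6) and 42.1% (37.1 to 47.3), against 53.4% of all coding genes.

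Most of the excess of the short arm lay in one stretch between 6 and 17 Mb, chosen after the bins had been seen. Its 1322 regions made 120 per Mb, 60.4% of the short arm and 35.8% of the chromosome, against 56.7 per Mb over the rest of the short arm. It is poor in genes, with 34.8 start sites per Mb and 38.9% G and C, and only 5.52% of its regions were TSS-proximal. The Mb bins with most regions were in it, from 7 to 8 Mb with 151 regions, from 14 to 15 Mb with 147 and from 12 to 13 Mb with 136. The bin from 14 to 15 Mb had 1 TSS-proximal region and lies inside MACROD2, a gene of a mono-ADP-ribosylhydrolase that is known for large introns. The gene body of MACROD2, 2.06 Mb long, held 245 regions, 6.64% of the chromosome. That is 119 per Mb, close to the 120 per Mb of the whole stretch. Of the 245 regions 26 were in all 3 lists, 10.6%, against 22.9% over chromosome 20 and 26.8% over all chromosomes. NTG alone held 63 of them and the siINO80 pair 16. Those classes made 24.9% and 4.91% of chromosome 20 regions, and 24.4% and 5.19% over all chromosomes. PLCB1 and PLCB4, phospholipases C of the beta family, followed by count with 79 and 54 regions, or 88.7 and 124 per Mb. KIF16B, a kinesin of endosome transport, held 35, or 116 per Mb, and SLX4IP, a partner of the SLX4 nuclease scaffold, 33, or 164 per Mb. On the long arm the highest counts were 33 in TSHZ2, a zinc finger factor, and 28 in PTPRT, a receptor tyrosine phosphatase, although PTPRT is 1.12 Mb long.

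Regions of that stretch were shared less. All 3 lists held 16% of them (14.2 to 18.1), against 26.7% (24.9 to 28.5) over the rest of chromosome 20. siINO80#1 alone held 26.9% (24.6 to 29.4) against 20.2% (18.6 to 21.9), and siINO80#2 alone 18.8% (16.8 to 21.0) against 12.4% (11.1 to 13.8). NTG alone held 24.2% (22.0 to 26.6) and 25.3% (23.6 to 27.1). The siINO80 pair held 6.43% (5.23 to 7.88) against 4.05% (3.33 to 4.93). In the other direction, NTG with siINO80#1 held 4.84% (3.81 to 6.13) against 9.25% (8.15 to 10.5).

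Over the 58 bins of chromosome 20 with at least 0.9 Mb of known sequence, regions were fewer where G and C were more frequent, with Pearson's r at -0.735 and Spearman's rho at -0.713, while TSS-proximal regions followed the number of start sites, at 0.731 and 0.803. Background in NTG followed G and C, at 0.878 and 0.835. The bins share the same libraries and neighbouring bins are alike, so these are descriptions. The longest stretches without a region were the centromere, from 26250257 to 29525107, of which 3100000 bases are unknown in the assembly, and 823 kb from 59693724 to 60516748, where CDH4, a retinal cadherin, starts.

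**Figure D2:**
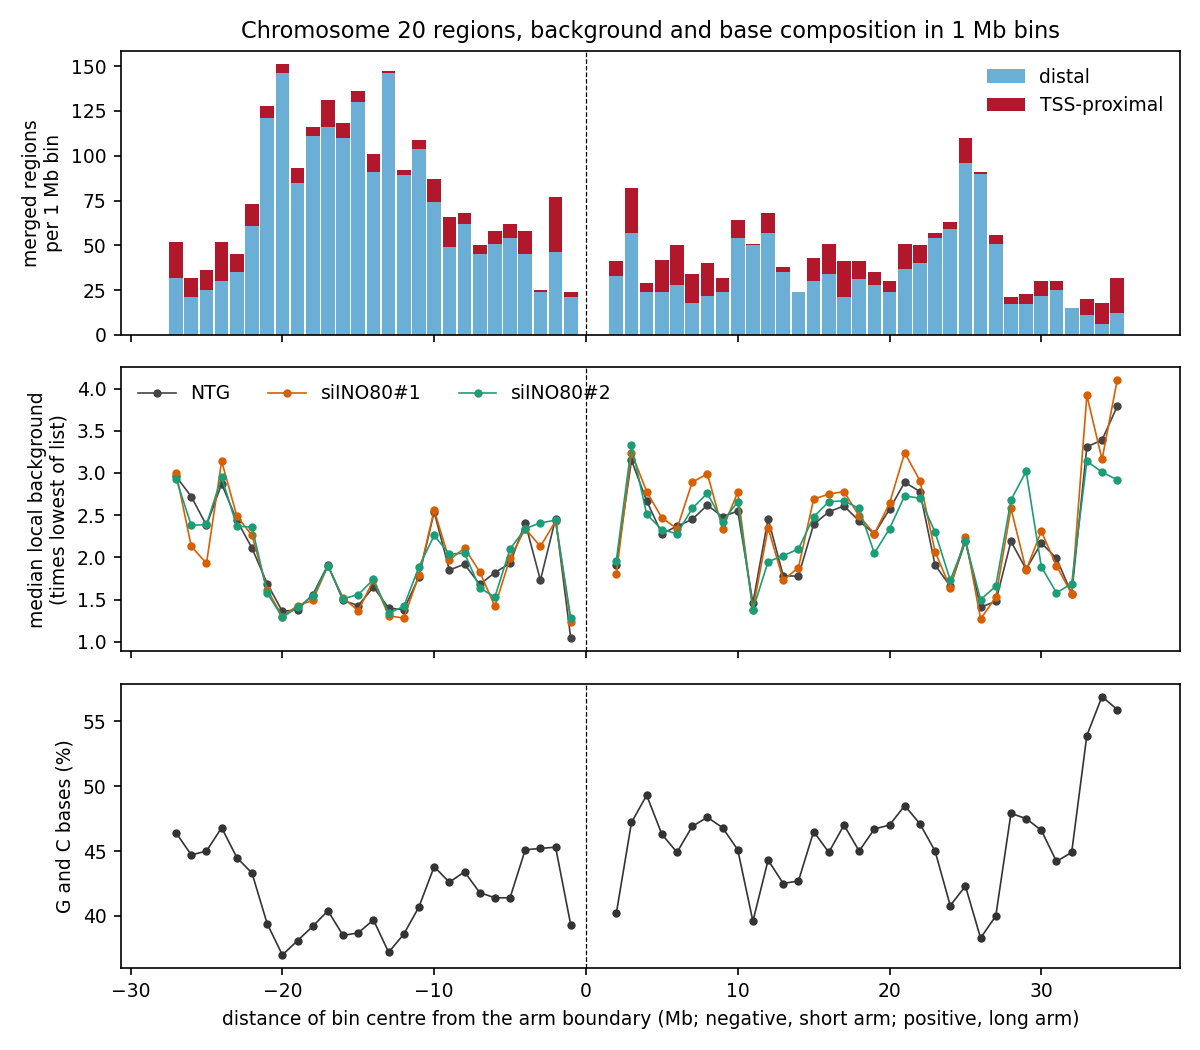
Chromosome 20 in 1 Mb bins by distance from the arm boundary in Mb (dashed line; short arm to the left): merged regions, TSS-proximal stacked on distal (top), median local background of the peaks of each list (middle) and the share of G and C bases (bottom). The highest bars, up to 151 regions, lie on the short arm where G and C and background are low, and the NTG background reaches 3.79 times the lowest in the last bin of the long arm.

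Regions were next divided by the lists that held them. NTG alone held 920 chromosome 20 regions, 24.9% (23.6 to 26.4), against 24.4% over all chromosomes. siINO80#1 alone held 834, 22.6% (21.3 to 24.0), against 21.6%, and siINO80#2 alone 543, 14.7% (13.6 to 15.9), against 11.7%. NTG with siINO80#1 held 283, 7.67% against 7.64%, and NTG with siINO80#2 held 85, 2.30% against 2.62%. The siINO80 pair held 181, 4.91% (4.25 to 5.65), against 5.19%, and all 3 lists held 844, 22.9% (21.5 to 24.3), against 26.8%. Chromosome 20 therefore stood near the background in most classes, above it for siINO80#2 alone and below it for all 3 lists. The low share for all 3 lists was not particular to it. On the denser chromosomes 2, 6 and 14 that share was lower still, at 17.8%, 21.3% and 21.7%. Regions in all 3 lists were wider, with a median of 754 bp against 201 to 215 bp for regions of 1 list, and 36.1% of them (33.0 to 39.4) were TSS-proximal, against 11% for NTG alone and 7.73% for the siINO80 pair. A merged region spans all of its peaks, so regions of several lists tend to be wider by construction.

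The arms differed in this division. Of regions found in 1 list, NTG held 36.1% on the short arm (33.7 to 38.7) and 46.2% on the long arm (43.0 to 49.5), with 42.4% elsewhere. Of regions found in 2 lists, the siINO80 pair made 39.4% on the short arm (34.3 to 44.9) and 23.8% on the long arm (18.7 to 29.7), with 33.6% elsewhere. Of all regions, the pair made 5.81% on the short arm (4.90 to 6.87; 127 regions) and 3.59% on the long arm (2.76 to 4.66; 54 regions). By list, the short arm held 1189 peaks in NTG, 1295 in siINO80#1 and 1010 in siINO80#2, and the long arm 989, 880 and 683. The short arm share thus went from 54.6% in NTG to 59.5% and 59.7% in the siINO80 lists. Each list was also cut to the size of the smallest by fold enrichment. The NTG shares were then 26.4% (23.6 to 29.4) on the short arm and 32.5% (28.6 to 36.7) on the long arm. The pair shares were 51.5% (45.1 to 57.9) and 41.0% (33.2 to 49.3). The order between arms was the same, but the intervals of the arms overlapped for both shares. Over the whole chromosome, NTG alone was no longer the largest single-list class. The largest was then siINO80#2 alone with 711 regions, against 405 for NTG alone.

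**Figure D3:**
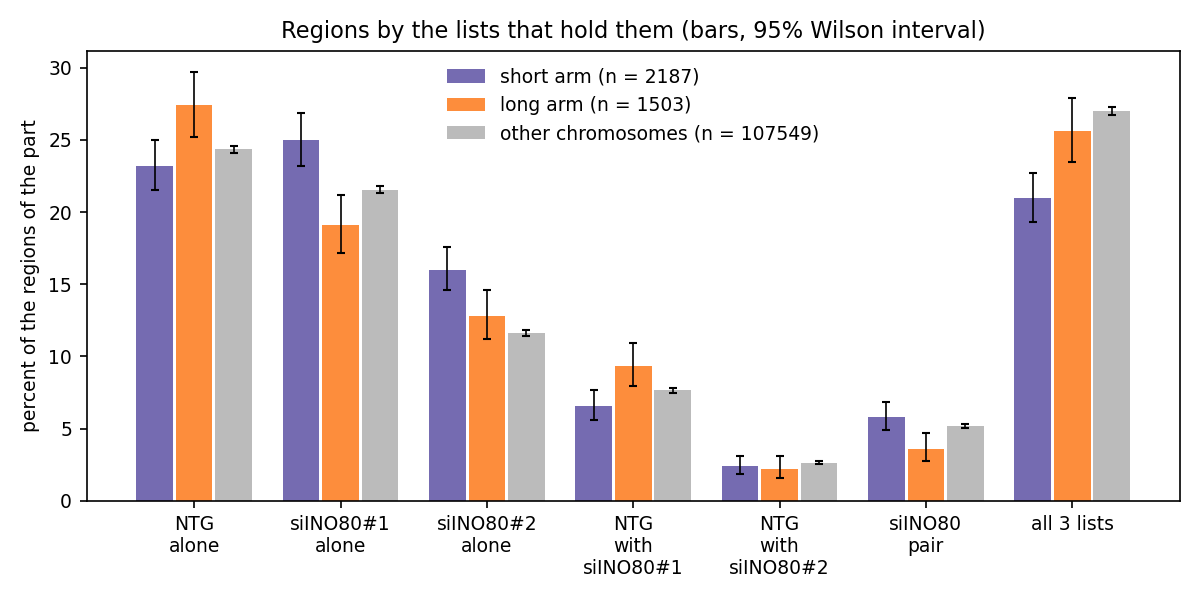
Share of the regions of the short arm, the long arm and the other chromosomes found in each combination of the 3 lists (bars, percent; whiskers, 95% Wilson intervals). The long arm is higher than the short arm for NTG alone, 27.4% against 23.2%, and lower for the siINO80 pair, 3.59% against 5.81%.

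Matching was then followed from each list. Of chromosome 20 NTG peaks, 53.7% (51.6 to 55.8) touched a siINO80#1 peak and 43.8% (41.7 to 45.9) a siINO80#2 peak, against 56.6% and 48.1% on the other chromosomes. Of siINO80#1 peaks, 53.1% matched NTG and 47.6% siINO80#2, against 56.7% and 52.3%. Of siINO80#2 peaks, 56.8% (54.4 to 59.1) matched NTG and 62.3% (59.9 to 64.5) siINO80#1, against 63.9% and 69.3%. All 6 shares were lower on chromosome 20, with intervals that did not overlap. From the siINO80 lists the arms differed, since NTG matched 47.7% of siINO80#1 peaks on the short arm (45 to 50.4) and 61.0% on the long arm (57.8 to 64.2). From NTG they did not separate, with 52.6% (49.8 to 55.5) and 54.9% (51.8 to 58.0) matched in siINO80#1.

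Lower matching went with the many weak peaks of chromosome 20, and at like fold enrichment the order was the other way. NTG peaks were ranked into 10 equal parts of the whole list. The weakest part held 26.6% of chromosome 20 NTG peaks, 22.6% on the short arm and 31.4% on the long arm, against 9.46% of those elsewhere. The strongest held 4.59% against 10.2%. In the fifth part, 56.9% of chromosome 20 peaks (49.6 to 63.9) had a match in either siINO80 list against 48.8% elsewhere (47.6 to 50.1), with intervals that overlap. The short arm stood at 48.6% in that part and the long arm at 68.4%. In the eighth part the values were 98.7% (95.4 to 99.6) on chromosome 20 and 91.2% (90.5 to 91.9) elsewhere. Only in the weakest part was the chromosome 20 value lower, at 32.2% (28.6 to 36.2) against 36% (34.9 to 37.2), with intervals that overlap. All 100 chromosome 20 peaks of the strongest part were matched in both siINO80 lists. In all, 57.8% of chromosome 20 peaks had a match. The share would be 52.7% if each part had matched as elsewhere. Summit reads and background were higher on chromosome 20, as given above, and their part in this difference was not tested.

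**Figure D4:**
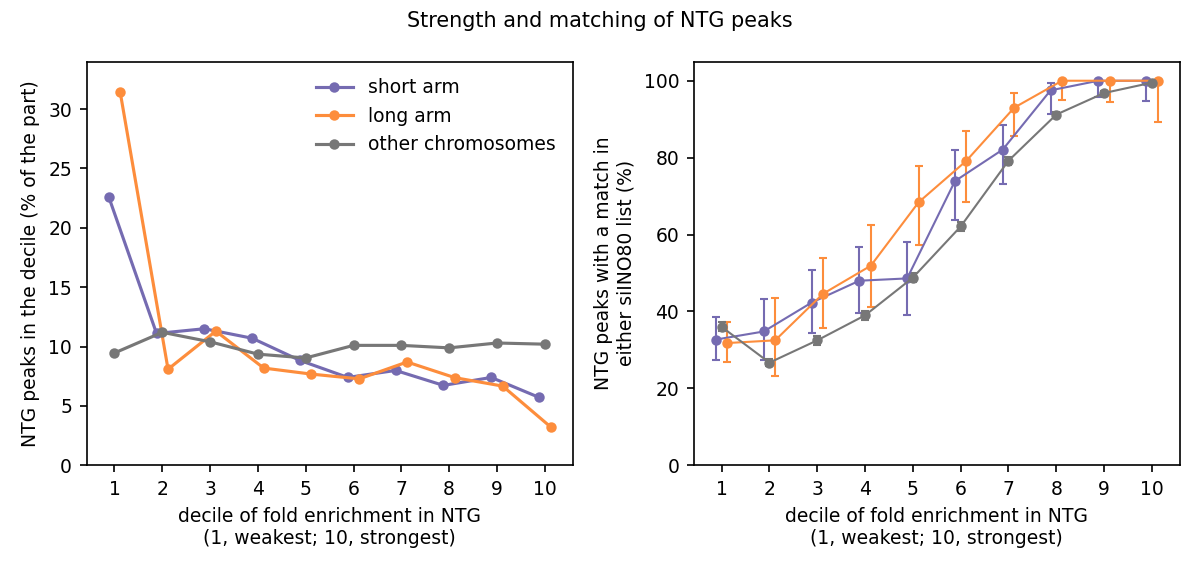
NTG peaks in deciles of the whole list by fold enrichment (1, weakest): the share of the peaks of each arm or of the other chromosomes in each decile (left, percent) and the share with a match in either siINO80 list (right, percent; whiskers, 95% Wilson intervals), for the arms of chromosome 20 and the other chromosomes. Chromosome 20 peaks crowd the weakest decile, 22.6% and 31.4% by arm against 9.46%, and from the second decile upwards both arms match more often than the other chromosomes, except the short arm in the fifth, at 48.6% against 48.8%.

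Genes were read in lists by role, with a gene counted when any of its start sites had a peak within 1 kb. The lists were chosen with earlier results of these data known, so their shares are descriptions only. Genes that share a peak were each counted. Of 22 genes of liver regulation and metabolism, 17 had a peak in NTG, 17 in siINO80#1 and 13 in siINO80#2. These were 77.3% (56.6 to 89.9), 77.3% and 59.1% (38.7 to 76.7), against 60.5%, 60.1% and 53.4% of all coding genes, and each interval holds the share of all genes. HNF4A, the nuclear receptor that maintains hepatocyte identity, had fold enrichments of 3.71 in NTG, 3.67 in siINO80#1 and 2.52 in siINO80#2, at percentiles 57.4, 61.9 and 16.5 of the lists. Its siINO80#2 peak was thus the low one. These peaks lie at the upstream end of the gene. Only the strongest peak over all start sites of a gene was kept, so weaker ones further into HNF4A are not given. FOXA2, a pioneer factor of liver and gut, was weak in every list at 2.81, 2.55 and 2.46. CEBPB, a factor of the acute phase response, had a peak of 2.56 in NTG that overlapped no siINO80 peak. It lay upstream of the gene start, and siINO80#1 had another at 1.68 over the gene start. PCK1, the rate-limiting enzyme of gluconeogenesis, had a peak in NTG alone, at 2.70. These last values lie at percentiles 10.6 and 21.3 of the NTG list, among weak peaks.

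Among the other genes of the list, values ranged widely. PANK2, an enzyme of coenzyme A synthesis, stood at 9.70 in NTG, 7.56 in siINO80#1 and 6.76 in siINO80#2. CRLS1, the cardiolipin synthase, stood at 7.32, 6.03 and 6.47. ACSS1, the mitochondrial counterpart of ACSS2, stood at 3.44, 3.25 and 3.11. ACSS2, which makes acetyl-CoA from acetate, stood at 7.10, 4.53 and 3.57, at percentiles 90.4, 74.1 and 60.2, so its rank was lower in both siINO80 lists. TRIB3, a stress-induced pseudokinase, had its NTG peak of 3.83 and its siINO80 peaks of 1.94 and 2.37 at different start sites, so these are not values of one region. HAO1, the liver glycolate oxidase, had no peak at a start site in any list, although 10 regions lay in its gene body. PLTP, a plasma phospholipid transfer protein, PROCR, the protein C receptor, and PXMP4, a peroxisomal membrane protein, had none at a start site either.

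Of 30 long arm genes of cell division and growth, 28 had a peak in NTG, 26 in siINO80#1 and 22 in siINO80#2. These were 93.3%, 86.7% and 73.3%, against 60.5%, 60.1% and 53.4% of all coding genes and 55.7%, 56.5% and 42.1% of those on the long arm. AURKA, the mitotic kinase, stood at 9.44 in NTG, 10.6 in siINO80#1 and 8.98 in siINO80#2, in a region it shares with CSTF1, which starts in the other direction. TPX2, the spindle factor that activates AURKA, stood at 7.78, 9.11 and 7.62. Both were above percentile 90 in all lists. TOP1, the DNA topoisomerase, stood at 6.97, 6.43 and 7.13, and ZNF217, an oncogenic zinc finger factor, at 6.03, 6.95 and 4.91. The 22 genes with a siINO80#2 peak had a peak in all 3 lists. E2F1, a factor of S phase entry, and MYBL2, a factor of mitotic genes, had a peak in NTG and siINO80#1 alone, as did PLAGL2 and POFUT1, which share one. SRC and PTK6, both tyrosine kinases, had one in NTG alone, at 2.63 and 2.28. DNMT3B, a de novo DNA methyltransferase, and MMP9, a secreted gelatinase, had none.

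The 20 short arm genes of replication, RNA processing and basic metabolism all had a peak in NTG and in siINO80#1, and 18 had one in siINO80#2, or 90.0%. All coding genes gave 60.5%, 60.1% and 53.4%, and those of the short arm 65.8%, 66.3% and 60.9%. Their median percentiles were 85.5, 83.6 and 87.8, against 77.2, 74.2 and 74.1 over all short arm coding genes with a peak. CRNKL1, a spliceosome protein, stood at 11.6, 10.3 and 8.71, and SEC23B, a coat protein of ER export, at 11.5, 10.7 and 9.58. PCNA, the sliding clamp of DNA replication, had its NTG peak of 9.19 at one start site and its siINO80 peaks of 7.76 and 8.28 at another, so these are not values of one region. MCM8, a helicase of recombination, and TRMT6, a tRNA methyltransferase, share a peak of 10.3, 8.73 and 8.29. In 9 of the 20 genes the NTG peak also served another coding gene, against 5 of 28 in the long arm list and 1 of 17 in the liver list. UBOX5 and ITPA were the genes without a siINO80#2 peak.

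Most genes of the tissue-restricted clusters of chromosome 20 had no peak. Of 45 genes, 6 had a peak in NTG, 6 in siINO80#1 and 1 in siINO80#2, against 60.5%, 60.1% and 53.4% of all coding genes. Beta-defensins, antimicrobial peptides of epithelium and epididymis, gave 3, 2 and 1 of 13. Cystatins, protease inhibitors of saliva and the male tract, gave 2, 2 and 0 of 10, the BPI fold genes of the airway 1, 1 and 0 of 8, and the WFDC and semenogelin genes of the male tract 0, 1 and 0 of 14. Most of these peaks were weak, but DEFB121 had a peak of 7.39 in NTG, 5.20 in siINO80#1 and 3.52 in siINO80#2. Of 16 neural and endocrine genes, 1 had a peak in NTG, 3 in siINO80#1 and 1 in siINO80#2. CHGB, a secretory granule protein of endocrine cells, was the gene in all 3 lists, at 8.50, 6.18 and 4.13, at percentile 94.8 of the NTG list.

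**Figure D5:**
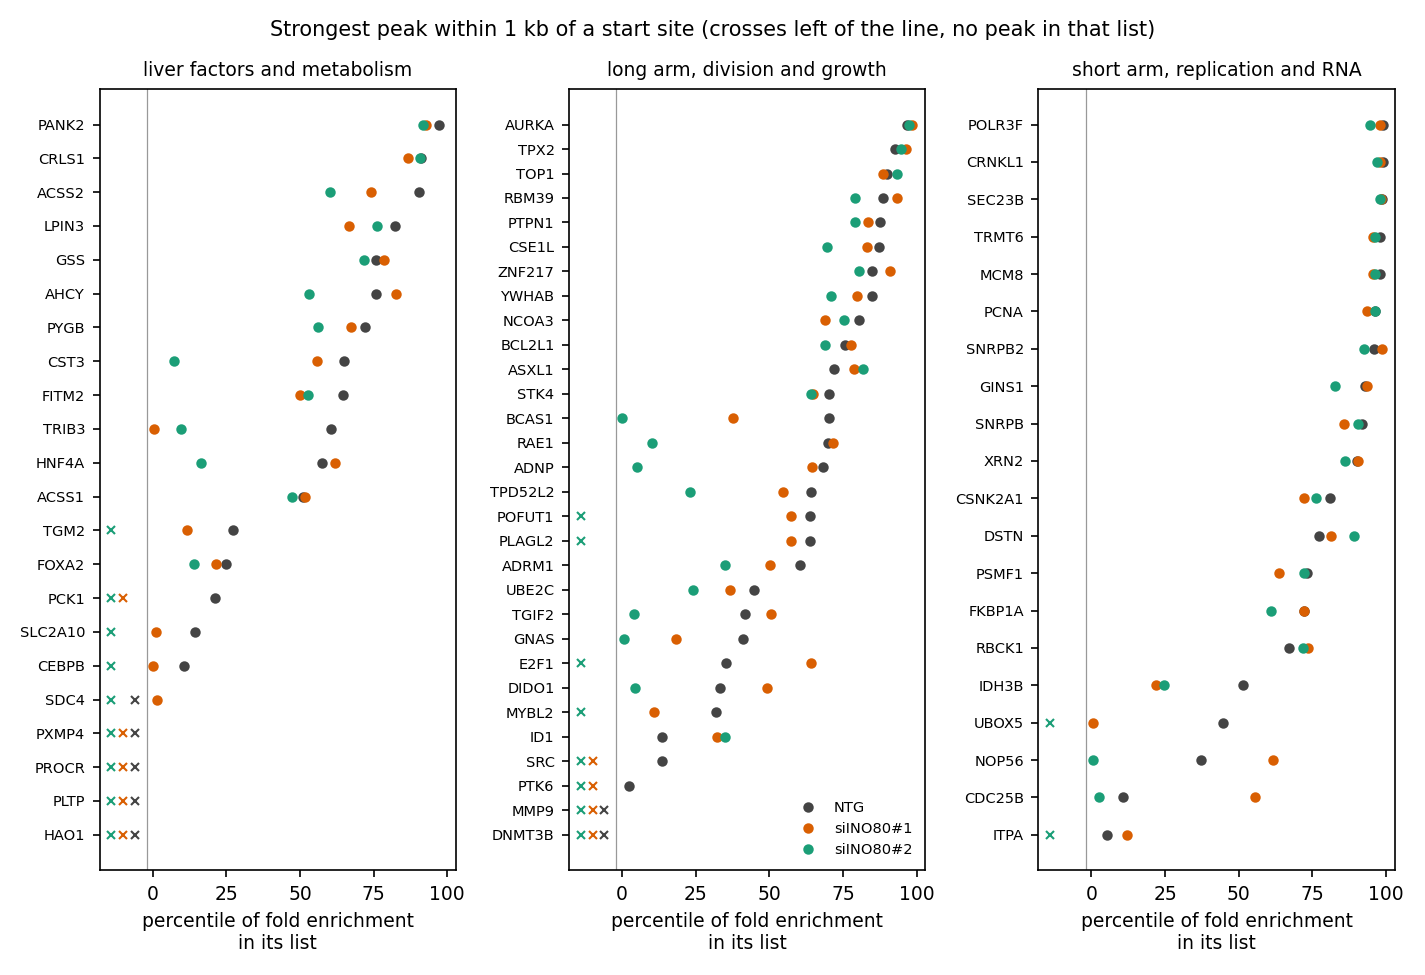
Percentile, within each list, of the strongest peak within 1 kb of a start site for genes of 3 lists on chromosome 20 (points, coloured by peak list; crosses left of the grey line, no peak in that list; genes sorted by NTG). The peak can lie at another start site in another list, as for PCNA and TRIB3. Liver genes spread from percentile 97.1 to no peak, whereas most short arm genes of replication and RNA processing lie above percentile 70 in all lists.

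The strongest regions of the chromosome were in all 3 lists. On the short arm the highest NTG value was 13.7 at the start of ANKEF1, with 10.8 in siINO80#1 and 8.35 in siINO80#2. The highest siINO80#1 value was 13.3 at the start of TASP1, a protease that cleaves MLL proteins, with 10.3 in NTG and 10.1 in siINO80#2. The highest siINO80#2 value was 12 at the start of the non-coding gene MIR663AHG, with 11.9 in NTG and 11.7 in siINO80#1. On the long arm an intergenic region at chr20:52739447-52740837, nearest to the vitamin D hydroxylase gene CYP24A1 at 33528 bp, was strongest in NTG at 13.1 and in siINO80#2 at 11.2, with 11.2 in siINO80#1. The region near PFDN4 was strongest in siINO80#1 at 12.3. The intron of ENSG00000232271 was at 13.5, 11.8 and 9.99. The 50 bases at each of these summits matched the assembly at 1 place. The widest regions spanned 2232 bp at MKKS, 2215 bp at FAM210B and 2185 bp in an intron of MACROD2.

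The regions of single classes were weaker. The NTG-alone regions of highest percentile lay in an intron of PAK5, a kinase of neurons, at chr20:9737420-9737644 with 5.06, in an exon where RBCK1 and TBC1D20 overlap at chr20:412195-412492 with 4.54, and in an intron of MACROD2 at chr20:14174550-14174851 with 4.43. The siINO80 pair regions lay in an intron of SLX4IP at chr20:10558818-10559510, with 5.07 in siINO80#1 and 5.20 in siINO80#2, in the DTD1 intron shown above with 4.79 and 4.51, and in another intron of PAK5 at chr20:9574846-9575390 with 4.82 and 4.30. All of them are on the short arm. DTD1 encodes an enzyme that clears D-amino acids from tRNA. None of these NTG-alone regions held a searched motif in its window, and of these pair regions only that of DTD1 did, where AP-1 letters occur at 2 places.

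AP-1 letters were most frequent in the siINO80 pair. They lay in the 200 bp window of 60 of 181 pair regions on chromosome 20, 33.1% (26.7 to 40.3), against 57 of 920 NTG-alone regions, 6.20% (4.81 to 7.94), and 152 of 844 regions of all 3 lists, 18.0% (15.6 to 20.7). Regions of siINO80#1 alone and siINO80#2 alone stood at 9.47% and 9.39%. The other chromosomes gave 32.0%, 5.09% and 16.7% for pair, NTG alone and all 3 lists, so the order is not particular to chromosome 20. Over all classes the letters lay in 11.6% of chromosome 20 regions and 11.9% of regions elsewhere. Both arms had the order, with 29.9% of pair regions on the short arm (22.6 to 38.4) and 40.7% on the long arm (28.7 to 54.0). The other motifs did not set chromosome 20 apart, with FOXA letters in 4.85% against 4.96%, HNF4A letters in 0.705% against 0.804%, CRE letters in 0.298% against 0.337% and CTCF letters in 1.79% against 1.70%. CTCF letters were more frequent on the long arm, at 2.73% (2.02 to 3.68), than on the short arm, at 1.14% (0.775 to 1.68).

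Among the 844 regions of all 3 lists, rank within the list was compared with a step of 20 percentile points, as a description of ranks and not of signal. On chromosome 20, 63 regions ranked at least that much higher in both siINO80 lists than in NTG, 7.46% (5.88 to 9.44), against 6.37% over all chromosomes. In the other direction, 79 ranked lower in both, 9.36% (7.58 to 11.5), against 6.32%. Over all 844 regions the median difference in rank from NTG was -0.53 points in siINO80#1 and -7.14 points in siINO80#2, against 0.00773 and -3.88 points elsewhere, and the part of this offset in the count was not tested. The lower regions were more frequent on the long arm, at 42 of 385 or 10.9% (8.17 to 14.4), than on the short arm, at 37 of 459 or 8.06% (5.90 to 10.9), with overlapping intervals. AP-1 letters lay in 22 of the 63 higher regions, 34.9%, and in 7 of the 79 lower ones, 8.86%, against 42.1% and 7.74% on the other chromosomes. Of the 79 lower regions 16 were TSS-proximal, and of the 63 higher ones 7, against 305 of all 844 (36.1%). Both groups thus held fewer TSS-proximal regions than their number would give at that share. On the other chromosomes 586 of 1808 lower and 314 of 1839 higher regions were TSS-proximal, against 39.2% of all regions in the 3 lists there.

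The regions with the widest such moves were chosen after their values were seen. The MACROD2 intron region at chr20:15683627-15684576 stood at percentile 13.8 in NTG, 85.6 in siINO80#1 and 92.4 in siINO80#2, and the one at chr20:14959723-14961178 at 3.68, 71.3 and 78.1. Both windows, printed above, carry AP-1 letters. A region in an intron of ENSG00000234900 at chr20:10739054-10739858 went from 12.4 to 77.3 and 79.7 and carries none. In the other direction, an intergenic region near BCAS1 at chr20:52713206-52713951 stood at 72.7 in NTG, 8.43 in siINO80#1 and 1.27 in siINO80#2. BCAS1, a myelin protein gene named for breast tumor amplification, showed the same order at its own start site, at fold enrichments of 4.47 in NTG and 1.82 in siINO80#2.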

How the data were processed

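ATAC-seq was measured in 9 HepG2 samples, 3 replicates for each of 3 siRNAs, grouped by their titles. The authors deposited 1 MACS2 narrowPeak list per siRNA, and how the replicates were combined in it is not given in the sources used here. Per the labels, the lists had been filtered after calling by a criterion that is not given in the sources used here. The submitters' processing notes name Trim Galore 0.4.1, Bowtie2, SAMtools, MACS2, deepTools 2.2.4 and hg19; the handling of the transposase offset is not given in the sources used here. Fold enrichment is a ratio computed by the authors' peak caller between summit reads and local background, without an input library. The p-value and q-value of each peak were deposited as −log10 values, with a lowest −log10 q of 1.30 in each list. The score column of the deposited lists, which is derived from the −log10 q, was not used. On GRCh37, 0 peaks ended beyond a chromosome and 0 summits lay on unknown bases.

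Intervals with several summits were counted once, at the summit of highest fold enrichment. Peaks were merged at distance 0 and regions put in 1 of 7 classes, each represented by the summit of highest within-list percentile of fold enrichment. Start sites were the 220784 of GENCODE v44 lifted to GRCh37. Summit reads and background were solved from fold enrichment and −log10 p by the MACS2 formulas, with an error of at most 0.00121 in −log10 p. The number of sequenced reads is unknown, and the relative read numbers assume that the lowest background is the genome background and the shortest peak the fragment length. The solution was tested on 5000 simulated peaks, with 100.0% recovered. Merging and classes were tested on 917 simulated peaks, and the merged regions were the same as those of bedtools. Scripts ran under Python 3.11.15 with bedtools 2.31.1, matplotlib 3.10.9, pysam 0.24.0, scipy 1.17.1, pandas 2.3.3 and numpy 2.4.6.

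The chromosome and the gene lists were chosen with earlier results of these data known. Named regions were the strongest of each list on each arm, the 3 highest of NTG alone, of the siINO80 pair and of all 3 lists, the 3 widest, the 3 fullest bins and the 3 longest stretches without a region. Regions with the widest moves in rank were named as well. Not all of these regions, stretches and sequences are reported here. PECAM1, a marker listed for other cell types, was not found in the annotation under that name. Alternatives were a −log10 q of at least 5, equal list sizes, a merge distance of 500 bp, an overlap of 50%, a start site distance of 2.5 kb, coding start sites, a 100 bp motif window, full arm length and leaving out 25 to 31 Mb.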

Additional observations from a re-analysis of the deposited data

Results flagged for a closer look

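Of 9 summary measures of the chromosome 20 peaks, 2 moved in opposite directions for the 2 siRNAs. The median peak width of siINO80#1 minus that of NTG was -3.00 bp, and that of siINO80#2 minus NTG was 17 bp. The number of short arm peaks was 106 higher in siINO80#1 than in NTG, and siINO80#2 minus NTG was -179. The siINO80#2 list was shorter over the whole genome. With 1 list behind each siRNA, these differences were not tested.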

How the results depend on the processing

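No paired analysis was possible because the 3 replicates behind each siRNA share 1 list, and for the same reason replicates could not be left out in turn. A share counts as moved when it left the 95% interval of its reported value, and a count or ratio when it changed by more than 1.5 times. The short arm stayed denser than the long arm in every alternative run, at a ratio of 1.54 to 2.00. Chromosome 20 stayed denser than the other chromosomes, at 1.33 to 1.61. The background medians moved by less than 1.5 times without 25 to 31 Mb and for weak peaks. Sharing is given in the sequence of the report, first for the NTG peaks, then for those of siINO80#1 and last for those of siINO80#2. At a −log10 q of 5 or more, which leaves fewer peaks by construction, 1172 regions remained, sharing was 77.1%, 62.0%, 74.6%, 67.3%, 79.5% and 89.4%, NTG made 49.2% of the regions found once (short arm 40.6%, long arm 60.4%), and the TSS-proximal share was 25.2% on the short and 38.0% on the long arm. With lists of equal size by fold enrichment there were 2455 regions, sharing was 60.4%, 60.9%, 62.0%, 68.0%, 47.0% and 51.4%, the NTG share was 28.6% (26.4% and 32.5% by arm), the pair share of 2-list regions 47.6% (51.5% and 41.0%), and the TSS-proximal share 14% and 24.8%. With equal size by −log10 q, sharing was 61.2%, 54.9%, 62.5%, 61.7%, 52.7% and 58.1%, the NTG share 34.4% (30.5% and 40.6%), the pair share 40.5% (47.1% and 31.4%) and the TSS-proximal share 13.9% and 25.4%. An overlap of 50% gave 46.1%, 35.8%, 44.9%, 39.1%, 50.3% and 55.8%. The TSS-proximal shares were 17.6% and 30.5% with start sites within 2.5 kb and 7.82% and 17.8% with coding start sites. In the 100 bp motif window AP-1 letters lay in 4.67% of NTG-alone and 22.1% of pair regions. Wherever both arms were recomputed, the long arm kept the higher NTG share and TSS-proximal share and the short arm the higher pair share. The arm intervals of the NTG share overlapped at equal size by fold enrichment. Those of the pair share overlapped there and at a −log10 q of 5 or more. At equal size, however, chromosome 20 had more regions of siINO80#2 alone than of NTG alone. These were 711 against 405 by fold enrichment and 621 against 543 by −log10 q. Apart from the changes that follow from a setting's construction, the cause was not tested. Of 174 other values, 111 did not move and 63 did.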
